A study of Mus musculus with 6 samples.

Results

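A set of 10 genes known as markers of tissue macrophages were followed in RNA sequencing libraries of sorted splenic follicular (Fo) B cells. They were picked by gene symbol (C1qa, C1qb, C1qc, Csf1r, Vcam1, Hmox1, Cd5l, Lyz2, Adgre1 and Cd68), and all 10 were listed among the 24346 genes of each library. Such cells recirculate through the follicles of spleen and lymph nodes and make up most mature B cells. The labels describe sorted cells positive for B220 and negative for CD93, with little CD21 and much CD23, from mice aged 8 weeks. Of the 6 libraries, 3 were made from B6 control mice (WT below) and 3 from G9gl homozygous mice. G9gl is the germline precursor of an anti-DNA antibody from a person with lupus, carried as a knock-in of its heavy (H) and light (L) chains, and the study asked what sets its anergic B cells apart. The labels do not say whether a library stands for its own animal or for a pool, so the p-values rest on the spread among libraries, which may be technical.

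Macrophages of the spleen engulf dying cells, aged red cells and debris. Those of the red pulp break down haemoglobin and return its iron to the blood, and they depend on the growth factor receptor encoded by Csf1r and on the transcription factor Spi-C. Mature B cells are not known as a main source of C1q, CD5L or lysozyme, and transcripts of these genes can serve as a measure of macrophages, or RNA from them, carried along in a B cell sort. In bulk libraries, more macrophage cells or fragments and more macrophage-type RNA per B cell cannot be told apart.

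The macrophage genes were low in both genotypes, and 7 of the 10 were called higher in G9gl, against 11.8% of all genes tested. Every G9gl library lay above every WT library for 10 of the 10 genes, which was also so for 20.3% of the genes tested and for 14.6% of the genes above 0 in any library. Every G9gl library lay below every WT library for 0 of the 10 genes, against 20.5% of the genes tested. Levels are FPKM, fragment numbers divided by transcript length and by the mapped total, as deposited. Summed over the 10 genes, the WT libraries had 26.1, 20.3 and 20.8 FPKM and the G9gl libraries 56.7, 49.0 and 52.2 FPKM. The means were 22.4 ± 3.20 and 52.6 ± 3.87 FPKM (SD with n = 3 in each genotype, likewise for FPKM errors below), a ratio of 2.35. Against Cd79b, which encodes a chain of the B cell receptor and had 2473 ± 53.6 FPKM in WT and 2425 ± 32.1 in G9gl, the sum came to 0.822% to 1.07% in WT and 2.0% to 2.34% in G9gl.

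**Figure D1:**
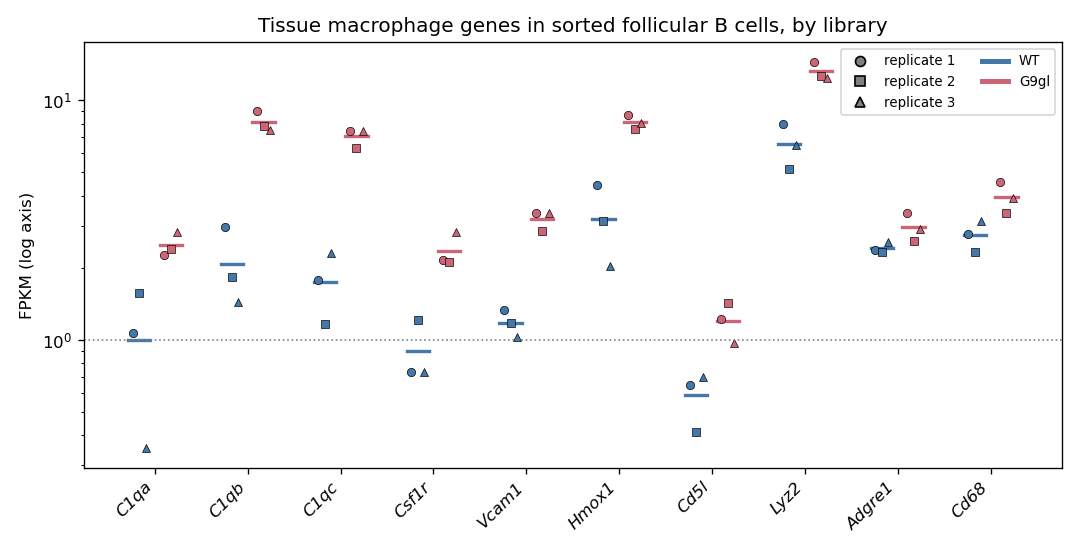
FPKM (log axis) of the 10 macrophage genes in each library, with WT in blue and G9gl in red. Symbols are replicates, short lines are group means and the dotted line marks 1 FPKM. The G9gl points sit above the WT points for each gene, by the smallest margin for Adgre1, where WT replicate 3 had 2.55 and G9gl replicate 2 had 2.58 FPKM.

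Tests used limma on log2(FPKM + 1) with Benjamini-Hochberg adjustment over the 10122 genes that reached 1 FPKM in 3 or more libraries. Of the 10 genes, 7 were called higher in G9gl at an adjusted p under 0.05, 0 were called lower, Adgre1 and Cd68 did not pass, and Cd5l was below the filter. Of all genes tested, 11.8% were called higher and 11.6% lower. Without a filter on low values all 10 genes could be tested and 6 were higher, against 5.07% of 19079 genes, with adjusted p of 0.080 for C1qa and 0.064 for Cd5l. Csf1r reached 1 FPKM in 3 G9gl libraries but only 1 WT library and C1qa in 2 WT libraries, so both passed the filter through G9gl. The added 1 pulls the fold changes of genes this low towards 0, and with 0.1 added in its place the log2 fold change was 1.33 for Csf1r and 1.43 for C1qa, against 0.83 and 0.85.

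C1q is the recognition molecule of the classical complement pathway and is built from 3 chains, A, B and C, whose genes C1qa, C1qb and C1qc lie side by side on chromosome 4. In GENCODE vM21 on GRCm38, which mm10 denotes, C1qb spans 136880129 to 136886187, C1qc 136889804 to 136893065 and C1qa 136895917 to 136898803, all on the minus strand. C1qb had 2.97, 1.83 and 1.44 FPKM in WT and 9.05, 7.78 and 7.49 FPKM in G9gl. All 3 G9gl libraries were well above the highest WT library. The log2 fold change was 1.59 ± 0.17 (SE, as for all log2 fold changes below), with a limma adjusted p of 0.00025.

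C1qc had 1.78, 1.16 and 2.31 FPKM in WT and 7.47, 6.31 and 7.44 FPKM in G9gl. Its log2 fold change of 1.57 ± 0.16 (limma adjusted p 0.00017) was close to that of C1qb. C1qa had 1.07, 1.57 and 0.352 FPKM in WT and 2.26, 2.40 and 2.83 FPKM in G9gl. It was the lowest of the C1q genes by mean level in both genotypes, and the lowest library, WT replicate 3, stood well below the other two. C1qa rose with a log2 fold change of 0.85 ± 0.22 (limma adjusted p 0.022), but the call was lost without G9gl replicate 2 (0.053), without G9gl replicate 3 (0.071) or without a filter on low values.

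The depth behind these values is small. No counts were used, and the number of fragments was estimated from the FPKM step that 1 fragment gives, which put each library at 10540000 to 12380000 fragments. On that basis C1qa rested on about 3 to 13 fragments in a WT library and 20 to 23 in a G9gl library. For C1qa in WT replicate 3, the exact Poisson 95% interval around 3 fragments spans 0.0778 to 1.10 FPKM and overlaps that of WT replicate 2, 0.821 to 2.64 FPKM. C1qb rested on about 12 to 28 fragments in WT and 64 to 84 in G9gl. Its intervals ran up to 4.34 FPKM in WT and down to 5.77 FPKM in G9gl, so they did not meet between genotypes. The numbers are approximate, since only 8 of the 24 estimates for C1qa, C1qb, Cd5l and Lyz2 came within 0.1 of a whole fragment. No estimate for C1qa did so, and for C1qb only that of G9gl replicate 3, so the fragment numbers of both are rough. Each estimate was rounded for its interval. Such intervals cover counting error only, and reads copied by PCR are not independent molecules.

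The C1q chains kept no fixed ratio from library to library. C1qc over C1qb was 0.599, 0.631 and 1.60 in WT and 0.826, 0.811 and 0.994 in G9gl. C1qa over C1qb was 0.361, 0.854 and 0.244 in WT and 0.250, 0.308 and 0.377 in G9gl. Both ratios overlapped between genotypes, with exact two-sided permutation p-values of 1.0 and 0.70 (3 against 3 libraries, smallest possible 0.10). Both ratios spread less among the G9gl libraries, whose C1qb values rested on more fragments.

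The RefSeq promoter table matched 5 of the 10 genes (C1qb, C1qc, Cd5l, Lyz2 and Cd68). Its windows of 250 bases before the RefSeq start are shown for C1qb and C1qc because these neighbours had the largest changes among the 9 tested macrophage genes. The RefSeq starts of C1qc and Lyz2 lie inside the GENCODE spans given here, and the 151 and 49 bases of their windows within those spans are not printed. Capitals mark the letters GGAAGT, a core bound by factors of the ETS family such as PU.1, read on either strand (ACTTCC on the other).
C1qb (chr4:136886201-136886450, GRCm38.p6, minus strand): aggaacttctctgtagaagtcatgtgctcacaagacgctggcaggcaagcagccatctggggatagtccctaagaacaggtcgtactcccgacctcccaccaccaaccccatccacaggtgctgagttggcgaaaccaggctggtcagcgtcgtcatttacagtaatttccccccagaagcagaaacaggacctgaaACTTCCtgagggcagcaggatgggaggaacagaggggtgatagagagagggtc
C1qc (chr4:136893066-136893164, GRCm38.p6, minus strand): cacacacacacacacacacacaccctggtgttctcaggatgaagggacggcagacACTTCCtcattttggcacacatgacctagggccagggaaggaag
Each window held this core once, 48 bases before the RefSeq start in C1qb and 190 bases in C1qc, counted to the end of the core nearest the start, while 19.7% of 32851 windows of this length held it. The core GAGGAA, another form of the PU.1 site, was also found once in each, at 25 and 188 bases, against 23.3% of windows. In C1qc it overlapped GGAAGT. The letters TGCTGA, part of the site that Maf factors bind, were in the C1qb window and not in that of C1qc, against 16.1% of windows. These are matches of letters and not measured binding.

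Csf1r encodes the receptor of the growth factors CSF1 and IL-34, on which most tissue macrophages depend. It had 0.736, 1.21 and 0.736 FPKM in WT and 2.15, 2.11 and 2.83 FPKM in G9gl. Even the highest WT library stayed well below the lowest G9gl library. Csf1r rose with a log2 fold change of 0.83 ± 0.16 (limma adjusted p 0.0053).

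Vcam1 (chromosome 3, 116109949 to 116129688) encodes an adhesion molecule of red pulp macrophages, follicular dendritic cells and activated endothelium, which binds the integrin alpha 4 beta 1. It had 1.33, 1.17 and 1.03 FPKM in WT and 3.39, 2.84 and 3.38 FPKM in G9gl. The WT libraries were closely grouped and all lay well below the G9gl libraries. Its log2 fold change was 0.95 ± 0.13 (limma adjusted p 0.00088).

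Hmox1 (chromosome 8, 75093621 to 75100589) encodes haem oxygenase 1, which opens the haem ring and frees its iron, and which stress can induce in many cell types. It had 4.44, 3.13 and 2.04 FPKM in WT and 8.71, 7.62 and 8.08 FPKM in G9gl. WT libraries were more widely spread than G9gl libraries, without overlap. The log2 fold change was 1.16 ± 0.19 (limma adjusted p 0.0021).

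Cd5l (chromosome 3, 87357881 to 87371073) encodes a secreted scavenger receptor protein, also called AIM, that tissue macrophages make. By mean it was the lowest of the 10 genes in both groups, with 0.648, 0.412 and 0.698 FPKM in WT and 1.22, 1.42 and 0.966 FPKM in G9gl. Those values rested on about 8 to 13 and 18 to 31 fragments. The groups did not overlap, and an exact two-sided permutation test gave p = 0.10, the smallest that 3 against 3 libraries allow. Intervals from counting error alone did overlap, from 0.375 to 1.20 FPKM in WT replicate 3 and from 0.575 to 1.53 FPKM in G9gl replicate 3.

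Lyz2 (chromosome 10, 117277331 to 117282321) encodes lysozyme of macrophages and neutrophils and was the most abundant of the 10 genes in every library. It had 7.97, 5.19 and 6.54 FPKM in WT and 14.5, 12.6 and 12.4 FPKM in G9gl. Lyz2 rose with a log2 fold change of 0.92 ± 0.14 (limma adjusted p 0.0014), from about 59 to 95 fragments to 136 to 174. Lyz1 is a near copy, so fragments could be split between them, and it was listed at 0 to 0.733 FPKM. The Lyz2 window is shown for comparison with C1qb and C1qc, with GGAAGT in capitals as before.
Lyz2 (chr10:117282322-117282522, GRCm38.p6, minus strand): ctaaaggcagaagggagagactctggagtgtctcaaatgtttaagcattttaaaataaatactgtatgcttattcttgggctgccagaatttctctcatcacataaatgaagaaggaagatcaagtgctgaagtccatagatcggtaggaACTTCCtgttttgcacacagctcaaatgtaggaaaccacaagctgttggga
It held GGAAGT once, 95 bases before the start, and TGCTGA once, but not GAGGAA.

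Adgre1 and Cd68 encode proteins that are widely used to stain macrophages, F4/80 on the surface and macrosialin in lysosomes. Adgre1 (chromosome 17, 57358691 to 57483527) had 2.38, 2.33 and 2.55 FPKM in WT and 3.37, 2.58 and 2.89 FPKM in G9gl. The lowest G9gl and the highest WT library were almost level. The log2 fold change was 0.20 with a 95% interval of -0.08 to 0.48 (limma adjusted p 0.28), and Adgre1 passed in 0 of 16 alternative settings.

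Cd68 (chromosome 11, 69664213 to 69666153) had 2.77, 2.32 and 3.12 FPKM in WT and 4.55, 3.39 and 3.90 FPKM in G9gl. Its log2 fold change was 0.40 with an unadjusted 95% interval of 0.10 to 0.71, and it did not pass after adjustment (limma adjusted p 0.061). The Cd68 window is shown because its gene did not pass the test.
Cd68 (chr11:69666171-69666420, GRCm38.p6, minus strand): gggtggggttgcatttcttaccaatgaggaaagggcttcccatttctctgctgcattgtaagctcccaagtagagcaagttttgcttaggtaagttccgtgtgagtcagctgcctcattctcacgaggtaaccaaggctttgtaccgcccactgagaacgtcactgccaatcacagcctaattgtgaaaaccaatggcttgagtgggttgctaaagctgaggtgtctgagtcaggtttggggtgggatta
It held no GGAAGT and no TGCTGA, and GAGGAA once, 220 bases before the start. The Cd5l window, not printed, held 0 of GGAAGT, 1 of GAGGAA and 2 of TGCTGA. Cd5l was higher in every G9gl library than in any WT library. Whether these letters bear on the changes was not tested.

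**Figure D2:**
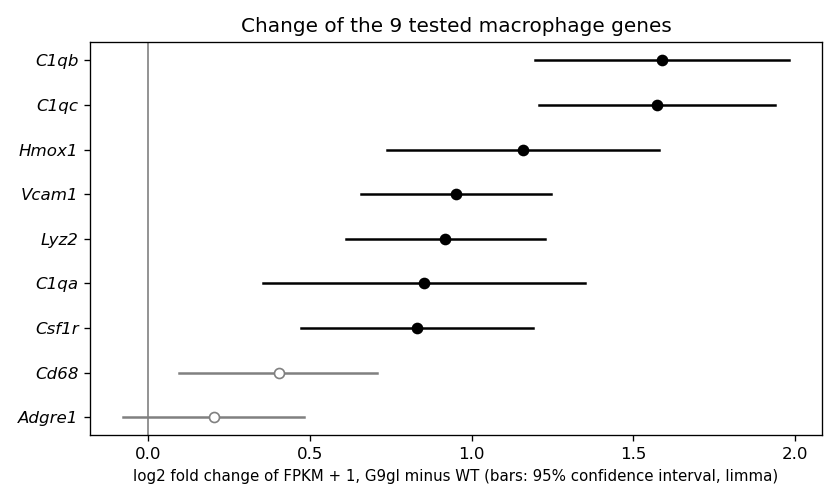
Log2 fold change of FPKM + 1, G9gl minus WT, for the 9 tested genes, with 95% confidence intervals from limma. Filled black points passed at an adjusted p under 0.05 and open grey points did not. C1qb and C1qc stand highest at 1.59 and 1.57, and Adgre1 lowest at 0.20 with an interval that includes 0.

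The log2 fold changes of the 9 tested genes ran from 0.20 to 1.59, and ratios to C1qb were compared library by library. Taken per C1qb, Adgre1 stood at 0.800, 1.27 and 1.76 in WT and at 0.372, 0.331 and 0.386 in G9gl. Cd68 over C1qb was 0.934, 1.27 and 2.16 in WT and 0.503, 0.435 and 0.521 in G9gl. Lyz2 over C1qb was 2.68, 2.83 and 4.53 against 1.61, 1.62 and 1.66. Of the 9 ratios to C1qb, 5 (those of Hmox1, Cd5l, Lyz2, Adgre1 and Cd68) did not overlap between genotypes, with an exact two-sided permutation p of 0.10 (0.18 adjusted over the 9), the smallest that 3 against 3 libraries allow, so no ratio could pass at 0.05. With C1qc, C1qb had the largest log2 fold changes of the 9 tested genes, so the choice of C1qb as denominator favours lower ratios in G9gl.

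As shares of the sum, C1qb made up 6.94% to 11.4% in WT and 14.3% to 16.0% in G9gl. C1qc made up 5.70% to 11.1% and 12.9% to 14.3%. The shares of Adgre1 and Cd68 were lower in each G9gl library than in any WT library, at 5.26% to 5.93% against 9.11% to 12.2% for Adgre1 and 6.91% to 8.02% against 10.6% to 15.0% for Cd68. Lyz2 was the largest share in both groups, with 25.5% to 31.4% in WT and 23.7% to 25.7% in G9gl. The G9gl libraries had much the same make-up as each other.

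**Figure D3:**
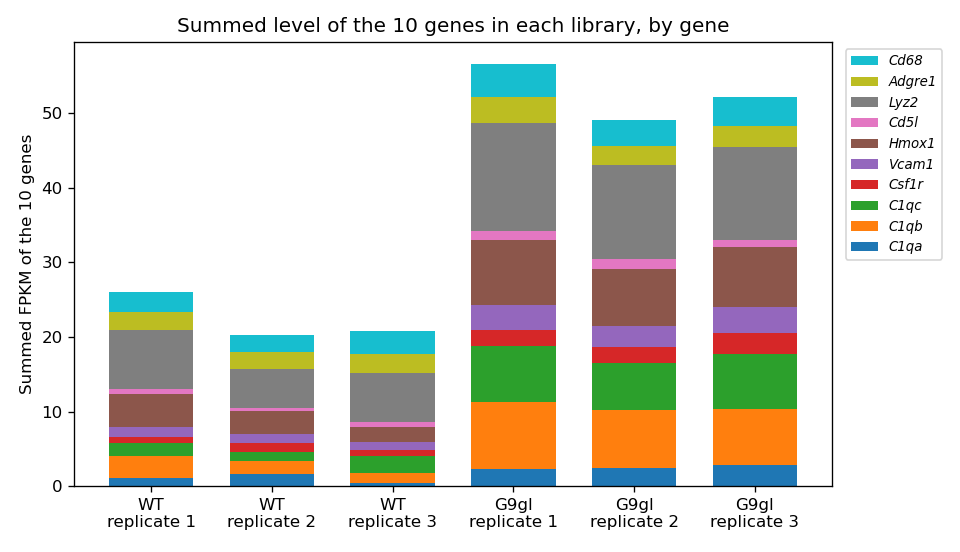
Summed FPKM of the 10 genes in each library, split by gene. The WT bars reach 20.3 to 26.1 and the G9gl bars 49.0 to 56.7, with larger C1qb and C1qc segments in G9gl.

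Within G9gl, replicate 1 was the highest library for 7 of the 10 genes and replicate 2 the lowest for 6. Within WT, replicate 1 was the lowest for 0 genes, and replicates 2 and 3 for 5 each. By mean level, each of the 10 genes stood below the middle of the genes tested. C1qb was above 9.25% of tested genes by mean FPKM in WT and above 32.2% in G9gl, Lyz2 above 27.0% and 44.7%, and Adgre1 above 10.7% and 13.4%.

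Of 30 further tissue macrophage markers, 7 were tested. Spic, which encodes the factor Spi-C of red pulp macrophages and is also transcribed in B cells, rose from 2.60 ± 0.870 to 6.56 ± 1.58 FPKM (log2 fold change 1.08 ± 0.21, limma adjusted p 0.0052). Slc40a1, the gene of the iron exporter ferroportin, rose from 1.71 ± 0.845 to 3.71 ± 0.450 FPKM (adjusted p 0.025). Sirpa, the gene of a receptor for CD47, rose from 1.94 ± 0.146 to 3.67 ± 0.361 FPKM (adjusted p 0.0039) and Axl, a receptor gene for uptake of dying cells, from 0.455 ± 0.161 to 1.26 ± 0.309 FPKM (adjusted p 0.025). Axl reached 1 FPKM in 0 WT libraries and 3 G9gl libraries and Slc40a1 in 2 and 3, so both passed the filter through G9gl. The call of Slc40a1 was lost without G9gl replicate 1 or 3 or without a filter, and that of Axl without WT replicate 1 or 2 or after quantile normalization.

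Clec12a, an inhibitory lectin receptor gene of myeloid cells, went the other way, from 7.82 ± 0.567 to 2.10 ± 0.414 FPKM (log2 fold change -1.51 ± 0.13, limma adjusted p 5.8e-05). In WT Lyz2 had 6.57 ± 1.39 FPKM, and which cells the Clec12a RNA came from was not tested. Aif1, a gene of an actin-binding protein of macrophages (adjusted p 0.068), and Clec4n, the gene of the lectin receptor dectin-2 (adjusted p 0.40), did not pass. The median log2 fold change was 0.67 over the 7 that passed the filter, against -0.0022 over all genes tested. Without a filter it was 0.080 over all 30, against 0.023 over all genes, and with a filter of at least 5 FPKM it was -0.22 over the 2 left. Without a filter 5 of the 30 were called higher, against 5.07% of all genes, and 1 lower, against 785 of 19079 genes. Every G9gl library lay above every WT library for 11 of the 30, against 14.6% of the genes above 0 in any library. For 2 of the 30 every G9gl library lay below. The other 23 did not reach the filter, and 22 of the 30 stayed below 1 FPKM in all libraries. Among those near 0 were Marco, Siglec1 and Cd209b, which mark macrophages of the marginal zone, at group means of at most 0.0823 FPKM, and Vsig4, Timd4 and Cd163, at group means of at most 0.0477 FPKM.

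**Figure D4:**
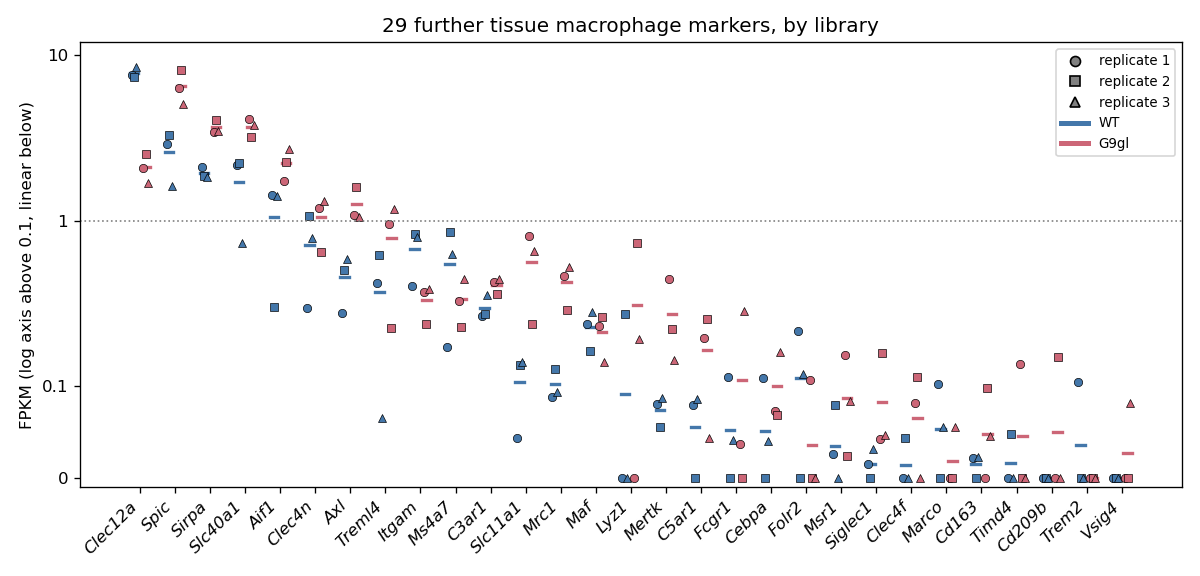
FPKM of 29 of the 30 further macrophage markers by library (log axis above 0.1, linear below), ordered by level, with WT in blue and G9gl in red. Spic, Sirpa, Slc40a1 and Axl are higher in G9gl, Clec12a is lower, and most others lie under the dotted line at 1 FPKM.

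The partners of C1q in complement were scarcely present. C1rb, C1s1 and Cfd were listed at 0 in all libraries, and C1ra, C1s2, C2, C3 and C4b stayed below 1 FPKM. Of 18 complement genes 5 were tested, of which 3 rose and 2 fell, against 11.8% and 11.6% of all genes tested. Cfp, the gene of the stabilising factor properdin, rose from 27.3 ± 3.01 to 39.7 ± 5.02 FPKM (limma adjusted p 0.0073). Cr2, which encodes the complement receptor CD21 and belongs to the sort gate, fell from 131 ± 7.20 to 61.2 ± 2.42 FPKM, and Cd55, a complement inhibitor gene, from 292 ± 16.3 to 188 ± 12.2 FPKM (adjusted p 0.00016). C1qbp and Cr1l also rose, but their calls were lost after rescaling to TPM and without G9gl replicate 2 (C1qbp) or WT replicate 2 (Cr1l).

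Of 13 genes around the CSF1 receptor and of myeloid factors, 9 were tested, 3 rose and 4 fell. Among all genes tested, 11.8% rose and 11.6% fell. Csf1, which encodes the ligand of the receptor, rose from 1.64 ± 0.105 to 3.58 ± 0.678 FPKM (limma adjusted p 0.0040), while Il34, the other ligand, was at 0 in all but 1 WT library. Tyrobp, the gene of a signalling adaptor that macrophages use heavily, fell from 74.9 ± 1.38 to 27.6 ± 2.41 FPKM (adjusted p 3.0e-06). Spi1, which encodes PU.1, a factor of B cells and macrophages, fell from 120 ± 5.51 to 91.9 ± 3.17 FPKM (adjusted p 0.0014). Irf8 rose from 344 ± 12.4 to 490 ± 17.5 FPKM, and Csf2rb and Ets2 fell. The call of Csf2ra as higher was lost in 6 of 17 alternatives, among them each removal of WT replicate 1 or 2 or G9gl replicate 1 or 2. Cebpa, a factor gene of the myeloid lineage, stayed below 1 FPKM. The median over the 9 tested genes was -0.26.

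Haem and iron genes went both ways, with 5 of 12 tested higher and 3 lower among 15 listed. The shares over all genes tested were 11.8% and 11.6%. The 5 include Spic and Slc40a1, already counted among the further macrophage markers. Blvrb, a biliverdin reductase gene that acts downstream of haem oxygenase, rose from 144 ± 3.25 to 229.0 ± 6.99 FPKM (limma adjusted p 2.7e-05). Ftl1, the ferritin light chain gene, rose with a log2 fold change of 0.30 (adjusted p 0.0015), a call lost after quantile normalization, and Nfe2l2, which encodes the stress factor NRF2 that induces Hmox1, from 35.6 ± 2.73 to 47.1 ± 0.436 FPKM. Tfrc, the transferrin receptor gene, fell from 10.9 ± 0.664 to 6.64 ± 0.425 FPKM (adjusted p 0.0012). Fth1 and Slc11a2 fell as well, with calls that single libraries could undo (WT replicate 2 or G9gl replicate 3 for both, and G9gl replicate 2 for Fth1), and both were lost without a filter. Hmox2, the constitutive haem oxygenase gene, had 67.9 ± 4.17 and 71.8 ± 5.63 FPKM and did not pass (adjusted p 0.49). The list's median was 0.17.

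Of the 5 genes for integrin chains that bind VCAM1 or pair with such chains, 4 were tested, 0 rose and 2 fell. Among all genes tested, 11.8% rose and 11.6% fell. Itga4, the alpha 4 chain gene, fell from 20.8 ± 0.778 to 9.39 ± 1.09 FPKM (limma adjusted p 7.3e-05) and Itgb7 from 162 ± 10.6 to 130 ± 8.51 FPKM (adjusted p 0.010). Among 9 genes of the liver X receptors, which control Cd5l in macrophages, and their targets, Apoe rose from 223 ± 22.6 to 1157 ± 141 FPKM (adjusted p 9.4e-07) and Nr1h2 fell, with a median of 0.020 over 7 tested. With values rescaled to TPM, 3 of these were lower, against 2493 of all 10122 genes tested. Nr1h3, the receptor gene more typical of macrophages, stayed below 1 FPKM.

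Lysosome genes, the company of Cd68, had 6 of 13 tested higher and 1, Psap, lower (median 0.22). Of all genes tested, 11.8% were higher and 11.6% lower. Ctsd rose from 65.7 ± 3.34 to 85.0 ± 0.990 FPKM (limma adjusted p 0.0019) and Npc2, a cholesterol-binding protein gene, from 23.4 ± 1.47 to 32.2 ± 1.64 FPKM (adjusted p 0.0027). With values rescaled to TPM 4 were higher, against 730 of all 10122 genes tested. Without a filter it was also 4, against 5.07% of all genes. The calls of Lamp1 and Ctsl were lost without WT replicate 2, that of Ctsz without WT replicate 1 or G9gl replicate 2, and that of Psap in 10 of 17 alternatives. Of 10 genes for the uptake of dying cells, 4 were tested. Axl rose, and Cd36, a scavenger receptor gene, fell from 14.8 ± 0.638 to 4.73 ± 0.631 FPKM (adjusted p 2.1e-05), as did Itgav, whose call was lost without WT replicate 1 or 2. Which cells the Cd36 RNA came from was not tested. Mertk, the main such receptor gene of macrophages, stayed at or below 0.447 FPKM in every library. Its means were 0.0743 FPKM in WT and 0.271 FPKM in G9gl, and every G9gl library lay above every WT library. The list's median was -0.26.

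Genes of other blood cells moved in the same libraries, and their part in the results above was not tested. Over 12 neutrophil markers the summed level was 3.60 to 9.70 FPKM in WT and 17.5 to 38.0 in G9gl, and 1 of 3 tested, S100a8, rose. Lyz2 is also a neutrophil gene. Over 9 monocyte markers the sum was 11.6 to 14.4 FPKM in WT and 21.9 to 55.7 in G9gl, nearly all from Ly6c2, which lymphocytes also express and whose call as higher was lost with a robust fit, while Ccr2, Cx3cr1 and Fn1 stayed below 1 FPKM. Of the 9, Ly6c2, Chil3 and Vcan had every G9gl library above every WT library. Means were 0.172 and 0.772 FPKM for Chil3 and 0.0212 and 0.157 FPKM for Vcan. The same order held for 6 of 12 neutrophil, 4 of 9 dendritic cell and 3 of 8 natural killer cell markers. Among all genes above 0 in any library it held for 14.6%. Of all genes tested, 11.8% were higher. Without a filter 2 of the 9 monocyte markers and 3 of the 12 neutrophil markers were higher, against 5.07% of all genes. Dendritic cell markers summed to 2.26 to 4.27 and 7.24 to 7.93 FPKM, with 2 of 3 tested higher (Zbtb46 and Cd209a, the second not without WT replicate 2 or 3 or G9gl replicate 3). Natural killer cell markers summed to 3.36 to 5.84 and 9.42 to 13.2 FPKM, with 3 of 3 higher, of which Nkg7 kept its call in 4 of 16 alternatives. Zbtb46 and Klrd1 reached 1 FPKM in 0 WT libraries and 3 G9gl libraries, so they passed the filter through G9gl, as did Cd209a with 2 and 3. Without a filter 1 of 8 dendritic cell markers and 2 of 8 natural killer cell markers were higher, against the same 5.07% of all genes.

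Markers of other types did not follow this pattern throughout. T cell markers summed to 5.78 to 7.91 FPKM in WT and 7.59 to 8.67 in G9gl, with 0 of 3 called, and platelet markers to 0.247 to 0.738 and 0.681 to 1.36 FPKM, with 0 tested. Red cell markers summed to 55.7 to 61.5 FPKM in WT and 68.0 to 229.8 in G9gl, with 0 of 2 higher and Car2 lower. Stromal and endothelial markers summed to 102.1 to 113.5 and 73.3 to 83.2 FPKM, nearly all from Pecam1, which fell and which B cells also express. Plasma cell genes had 2 of 4 higher, Sdc1 and Jchain, against 11.8% of all genes tested. Jchain passed the filter through G9gl. Without a filter 2 of 5 were higher, against 5.07% of all genes. Of 13 B cell genes 3 were higher and 6 lower, against 11.8% and 11.6% of all genes tested. The counts were 2 and 10 with values rescaled to TPM, and 1 and 3 without a filter. The sorted cells were B cells by these markers, with Cd79b at the levels given above.

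Outside the set, tested genes were ranked by likeness to the mean profile of the 9 tested macrophage genes over the 6 libraries. Predicted genes and small RNA genes were left out. The nearest 8 included 0 genes from the macrophage lists. Only 7 of the 30 further macrophage markers were among the 10122 genes tested, so this count of 0 says little. Likeness was the root mean square difference in log2(FPKM + 1) after centring each profile, and the nearest 8 were Ubxn11 (0.066), Nfkbiz (0.072), Gpr171 (0.076), Dnaaf3 (0.078), Mx2 (0.084), Syt11 (0.091), Klrd1 (0.091) and Ackr3 (0.092). Ubxn11 had 11.3, 11.1 and 9.10 FPKM in WT and 20.8, 19.9 and 21.7 in G9gl. Nfkbiz, the gene of a nuclear regulator of NF-kB, had 13.9, 13.2 and 12.5 FPKM in WT and 28.5, 22.4 and 24.3 in G9gl. Klrd1, which encodes CD94 of natural killer cells, was the only one of the 8 on a list of cell type markers used here. Dnaaf3, Klrd1 and Ackr3 reached 1 FPKM in 0 WT and 3 G9gl libraries, so they entered the ranking through G9gl.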

How the data were processed

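RNA of sorted splenic Fo B cells was sequenced in 3 WT and 3 G9gl libraries, grouped by their titles. Per the labels' protocols, RNA was extracted with Trizol, and libraries were made with the SMART-Seq HT and Nextera kits, which keep no strand. Per the submitters' processing notes, the authors used Cufflinks 2.2.1, TopHat2 2.0.13, SAMtools 0.1.19 and Bowtie2 2.2.3 with mm10. Annotation and filters: not given in the sources used here. The deposited values are FPKM per gene symbol. The values of some genes on the lists are not reported here, though the list counts include them. Because FPKM is relative to the mapped total, abundant transcripts that change move every other value.

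Genes that reached 1 FPKM in 3 or more of the 6 libraries were fitted with limma 3.58.1 in R 4.3.3 (lmFit, eBayes with a trend) on log2(FPKM + 1), genotype as the only term, and called at a Benjamini-Hochberg adjusted p under 0.05. The labels name no batch and do not say whether libraries with the same replicate number were handled together. FPKM totals were 603054 to 671533, and 13467 to 16187 genes were above 0. No pair of libraries shared more than 2 identical values above 0. Fragments were estimated from the FPKM steps of genes with 1 transcript of at least 1500 bases. Between 75.7% and 79.6% of the low values used came within 0.1 of a whole fragment. The totals and length corrections were chosen to bring these same values near whole fragments, so this share is no independent check.

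The 10 genes and the 18 other gene lists were chosen with earlier results of these data known. Named were the 10 genes, members of 5 related lists, up to 4 members of each other list, 4 B cell genes and the 8 nearest profiles. Genes named as absent, low or not passing, and genes named to complete a count, were chosen after their values were seen. Positions come from GENCODE vM21 and promoters from RefSeq on GRCm38.p6, matched by symbol. Alternatives were other pseudocounts, filters and scalings, library weights, a robust fit, leaving out each library, and a replicate block.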

Additional observations from a re-analysis of the deposited data

How the results depend on the processing

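Of the 7 calls, those of C1qb, C1qc, Csf1r, Vcam1, Hmox1 and Lyz2 held in every alternative in which the gene was tested, and no gene of the 10 changed direction in any. The number called higher was 6 to 7 when each library was left out, and 4 with a filter of at least 5 FPKM, where only 4 of the 10 were tested. Over the alternatives the log2 fold change of C1qb ranged from 1.44 to 1.97, that of C1qa from 0.60 to 1.43, that of Csf1r from 0.73 to 1.33 and that of Adgre1 from 0.12 to 0.27. Among all tested genes, rescaling to TPM gave 730 higher and 2493 lower, against 1191 and 1174, and the median log2 fold change moved to -0.13. The 7 calls were also made there, with a summed level 2.14 times that of WT against 2.35. Leaving out 1 library gave 793 to 1076 higher (793 without G9gl replicate 2) and 689 to 1175 lower (689 without WT replicate 2). Without a filter on low values 968 were higher and 785 lower. With the replicate block, 1044 were higher and 988 lower, with 7 of the 10 genes higher. Same-numbered libraries deviated together with correlations of 0.099, -0.069 and 0.021, and not every library correlated best with its own number, so the numbers were not taken as pairs. Depth limits C1qa and Cd5l most, which rested on the fewest estimated fragments.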

Other observations

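Genes of granule and killer cells gave further values in the same libraries. S100a8, a calcium-binding protein gene abundant in neutrophils, had 4.07, 1.88 and 1.36 FPKM in WT and 19.2, 10.3 and 10.4 FPKM in G9gl (log2 fold change 2.08 ± 0.295 SE, limma adjusted p 0.0011). Its partner S100a9 overlapped between groups, with 3.61, 2.10 and 0.751 FPKM in WT and 8.71, 1.57 and 5.35 FPKM in G9gl (adjusted p 0.20). Camp and Mpo, genes of neutrophil granule proteins, were listed at 0 in the 3 WT libraries and at 1.62, 0.986 and 0.883 FPKM (Camp) and 0.342, 0.497 and 0.582 FPKM (Mpo) in G9gl. Prf1, the perforin gene of killer cells, rose from 1.73 ± 0.535 to 6.44 ± 1.57 FPKM (limma adjusted p 0.00064), while Ncr1 and Eomes, which define natural killer cells, stayed below 1 FPKM.

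Red cell and plasma cell genes differed in how they varied. Hba-a1, a haemoglobin alpha gene with a near copy, had 40.7, 25.8 and 42.7 FPKM in WT and 204.8, 67.5 and 29.7 FPKM in G9gl, and did not pass (limma adjusted p 0.20). Jchain, the gene of the joining chain of secreted antibodies, rose from 0.579 ± 0.195 to 6.23 ± 0.776 FPKM (limma adjusted p 1.4e-05), and reached 1 FPKM in 0 WT libraries, so it passed the filter through G9gl. Mzb1, a chaperone gene of antibody-secreting and marginal zone B cells, had 199.5 ± 11.4 and 202.7 ± 14.1 FPKM and did not pass.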
